A study of Mus musculus with 4 samples.

Results

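The proteasome genes examined here were the 47 genes of the RNA-seq table whose symbols begin with Psm, a letter from a to g and a number. The immunosubunits Psmb8 and Psmb9 were dropped by the rule, and names containing -ps were barred. The table lists 13834 genes, and all 47 members passed the filter on low counts, beside 12542 genes in all. By their known roles they were 16 subunits of the core (8 α and 8 β), 17 subunits of the regulatory particle (6 ATPases and 11 others), 7 assembly chaperones and 6 activators or inhibitors. The last member, Psmc3ip, matches by its name only. It encodes a meiotic recombination factor that is not a proteasome subunit.

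The proteasome is the barrel-shaped protease that degrades ubiquitin-tagged proteins in the cytoplasm and nucleus. Its core is a stack of α and β rings, with the cutting sites inside the β rings and a gate formed by the α rings. The regulatory particle caps the core, recognises ubiquitin, removes it and threads the unfolded protein inward with a ring of ATPases. Other activators, named PA28 and PA200, can open the gate in its place. In macrophages and other cells exposed to interferon γ, 3 catalytic subunits are exchanged for inducible ones, which forms the immunoproteasome and changes the peptides available for antigen presentation.

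RNA was sequenced from peritoneal macrophages, phagocytes washed out of the abdominal cavity of 10-week-old mice 3 days after an injection of thioglycolate broth, which recruits leukocytes there. There were 2 samples from Dnmt1fl/fl mice, whose Dnmt1 gene is flanked by loxP sites and whose genotype is labelled wt, and 2 from Dnmt1KO mice, which carry the same floxed gene together with Cre recombinase under the LysM promoter. Cre driven in this way acts in myeloid cells, which include neutrophils as well as macrophages. Dnmt1 is the enzyme that copies CpG methylation to newly made DNA strands, and the comparison asks which genes differ in macrophages in which it is deleted. The labels do not say that the samples came from separate mice, so p-values measure only the spread between these samples, which may be technical. Levels are given as CPM, counts brought to a common library total with TMM factors, and are listed in the order Dnmt1fl/fl replicate 1, Dnmt1fl/fl replicate 2, Dnmt1KO replicate 1, Dnmt1KO replicate 2.

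Total counts per sample ran from 20228071 to 24198943. Dnmt1 itself was at 86.6 and 67.0 CPM in the Dnmt1fl/fl samples and at 37.0 and 42.7 CPM in the Dnmt1KO samples, a log2 fold change of -0.95 with an adjusted p of 1.00 from edgeR. The labelled cell type was checked with its markers. All 8 macrophage markers were in the table, with summed levels of 36033 and 35852 CPM of the library totals in the Dnmt1fl/fl samples and of 16292 and 22425 CPM in the Dnmt1KO samples, both lower. By gene, 3 of the 8 had a log2 fold change above 0 and 5 below, with a median of -0.04. By edgeR, 1 had an unadjusted p under 0.05. The list includes Lyz2, the LysM gene, whose promoter drives Cre in the Dnmt1KO mice only. The part of Lyz2 in the sums was not tested. Dnmt1KO replicate 1 had the highest neutrophil sum, 823 CPM against 231 to 339 CPM in the other samples. All 8 neutrophil markers were in the table, and the 7 that were tested had log2 fold changes above 0, with 0 at an unadjusted p under 0.05. In bulk RNA, fewer cells of a type and less RNA per cell cannot be told apart. For the macrophage sum, neither can be told apart from a change in Lyz2 that comes with the Cre construct.

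The promoters of these genes were read first, since Dnmt1 acts on CpG dinucleotides. RefSeq windows from 250 bases before to 50 bases after the gene start (GRCm38.p6) were matched by symbol for 39 of the 47 members; Psma8, Psmb1, Psmb2, Psmb7, Psmc3, Psmd3, Psmd7 and Psmg2 had none. Psma6, Psmc2 and Psme2 had 2 windows, of which the first listed was used to count CpG, while motifs were searched in both. The median window held 19 CpG among members, against 20 among the 10756 genes of the table with a window and 7 among all 27025 genes with one. At least 10 CpG were present in 36 of 39 member windows (92.3%), compared with 78.7% of the table's genes. The lowest counts were 2 CpG for Psme2b and 3 CpG each for the immunosubunit Psmb10 and the first window of Psma6, whose other window held 22. Methylation was not among the measurements used here. The following stretches of 150 bases lie just upstream of the RefSeq start and themselves meet no annotated exon. They are shown for the member with the largest fold change in the core (Psmb6) and among the assembly chaperones (Psmg4). The others are of Psmd2, a scaffold of the regulatory particle base, and of the inhibitor Psmf1, the member whose genotypes did not overlap. All stretches run 5′ to 3′ along each gene's strand, with each CpG in capitals. Their positions are chr11:70525207-70525356 on the plus strand for Psmb6, chr16:20651502-20651651 on the plus strand for Psmd2, chr13:34162814-34162963 on the plus strand for Psmg4 and chr2:151741311-151741460 on the minus strand for Psmf1. The stretch of Psmf1 lies inside the annotated span of that gene, 151715812 to 151744186, whereas the others lie upstream of theirs.
Psmb6: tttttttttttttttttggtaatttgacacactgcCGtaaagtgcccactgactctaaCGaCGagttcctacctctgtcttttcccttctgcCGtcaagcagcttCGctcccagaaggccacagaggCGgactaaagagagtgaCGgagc
Psmd2: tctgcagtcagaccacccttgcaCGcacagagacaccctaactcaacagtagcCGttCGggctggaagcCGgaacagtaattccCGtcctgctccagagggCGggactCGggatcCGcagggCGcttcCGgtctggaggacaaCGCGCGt
Psmg4: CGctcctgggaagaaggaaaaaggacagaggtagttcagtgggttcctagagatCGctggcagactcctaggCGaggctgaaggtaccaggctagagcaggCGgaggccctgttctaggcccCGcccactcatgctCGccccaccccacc
Psmf1: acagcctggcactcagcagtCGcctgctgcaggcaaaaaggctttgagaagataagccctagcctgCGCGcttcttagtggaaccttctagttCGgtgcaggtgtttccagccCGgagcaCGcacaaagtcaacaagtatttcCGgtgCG
The stretch of Psmd2 held 13 CpG, that of Psmf1 8, that of Psmb6 7 and that of Psmg4 6.

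Members of the same complex often share sequence motifs near their starts, and 5 were searched on both strands of the windows. CGGAAG, the core of sites of the ETS family of transcription factors, was present for 22 of 39 members (56.4%), for 33.8% of the table's genes with a window and for 18.8% of all genes with one. The matches of Psma6 lie in its CpG-rich window. The core of interferon-response elements, TTTC and TTTC spaced by 2 bases, was present for 5 members (12.8%; 3.97% of the table's genes), namely Psmb3, Psmd4, Psmd9, Psme1 and Psmg4. TGACNNNGC, the antioxidant-response core read by Nfe2l1 and Nfe2l2, was present for 6 (15.4%; 16.9% of the table's genes), CCAAT for 13 (33.3%; 42.7%) and TATAAA for 3 (7.69%; 9.30%). No motif contains another, although matches can share bases, and the CG in CGGAAG also counts as a CpG. A match describes these letters only and is not evidence of binding. Examples with CGGAAG from the different arms of the complex are shown as 30-base stretches on the strand that reads the motif, which is in capitals, each upstream of the annotated gene.
Psmb3 (chr11:97703239-97703268, minus strand): tcactgtgagtgCGGAAGagcctacggtcc
Psmc1 (chr12:100110090-100110119, minus strand): aaaaacaggctaCGGAAGcctatcgggacc
Psmc6 (chr14:45329713-45329742, plus strand): aggcgggccagcCGGAAGgggcggagccag
Psmd2 (chr16:20651614-20651643, minus strand): tgtcctccagacCGGAAGcgccctgcggat
Psmd14 (chr2:61711568-61711597, minus strand): gtccccgcgaggCGGAAGtcaggcgagctg
Psme3 (chr11:101316095-101316124, plus strand): gggcacaaggccCGGAAGctccgacagccc
Psmg1 (chr16:95991046-95991075, minus strand): ttaacaggatgaCGGAAGcgcgccgcggga

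In the comparison of Dnmt1KO with Dnmt1fl/fl macrophages, no proteasome gene passed the test. With edgeR's quasi-likelihood test and adjustment over all genes, 0 of the 47 members had an adjusted p under 0.05, as did 0 of the 12542 genes tested (0%). Adjusted p was 1.00 for every member in edgeR, and DESeq2 and limma-voom also called 0 members. At an unadjusted p under 0.05, 0 of 47 members were found, with a background of 0.279% of all genes. The fitted log2 fold change was nevertheless above 0 in 43 of 47 members, where 50.9% of all genes tested were. Of the members, 31 were at 0.2 or more on the log2 scale (21.8% of all genes), and Psme2b alone was at -0.2 or less (19.7% of all genes). In either direction these were 68.1% of members and 41.5% of all genes, but 42.6% and 42.1% with limma-voom, 36.2% and 39.2% with a correction for transcript length, and 23.4% and 40.2% with library totals in place of TMM. Both Dnmt1KO samples were above both Dnmt1fl/fl samples for 1 member, Psmf1 (8.14% of all genes), and below for 0 (8.56%). With 2 samples against 2, the smallest two-sided p that exact permutation of the samples allows is 1 in 3.

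Most members had the same order of samples. Dnmt1KO replicate 1 was the highest of the 4 samples in 44 of 47 members, where 38.8% of all genes had that order, and Dnmt1KO replicate 2 was the lowest in 37 of 47 (25.8% of all genes). Dnmt1KO replicate 1 and Dnmt1fl/fl replicate 2 were both above the other 2 samples in 41 of 47 (28.7% of all genes). The exceptions to the first count were Psma8, Psme4 and Psme2b, which were highest in Dnmt1KO replicate 2. Members summed to 3197 and 3642 CPM in the Dnmt1fl/fl samples, to 5186 CPM in Dnmt1KO replicate 1 and to 2977 CPM in Dnmt1KO replicate 2. Both Dnmt1fl/fl samples therefore lay between the Dnmt1KO samples. The median absolute log2 difference between the Dnmt1KO samples was 0.80 over members and 0.48 over all genes, whereas between the Dnmt1fl/fl samples it was 0.20 over members and 0.21 over all genes.

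**Figure D1:**
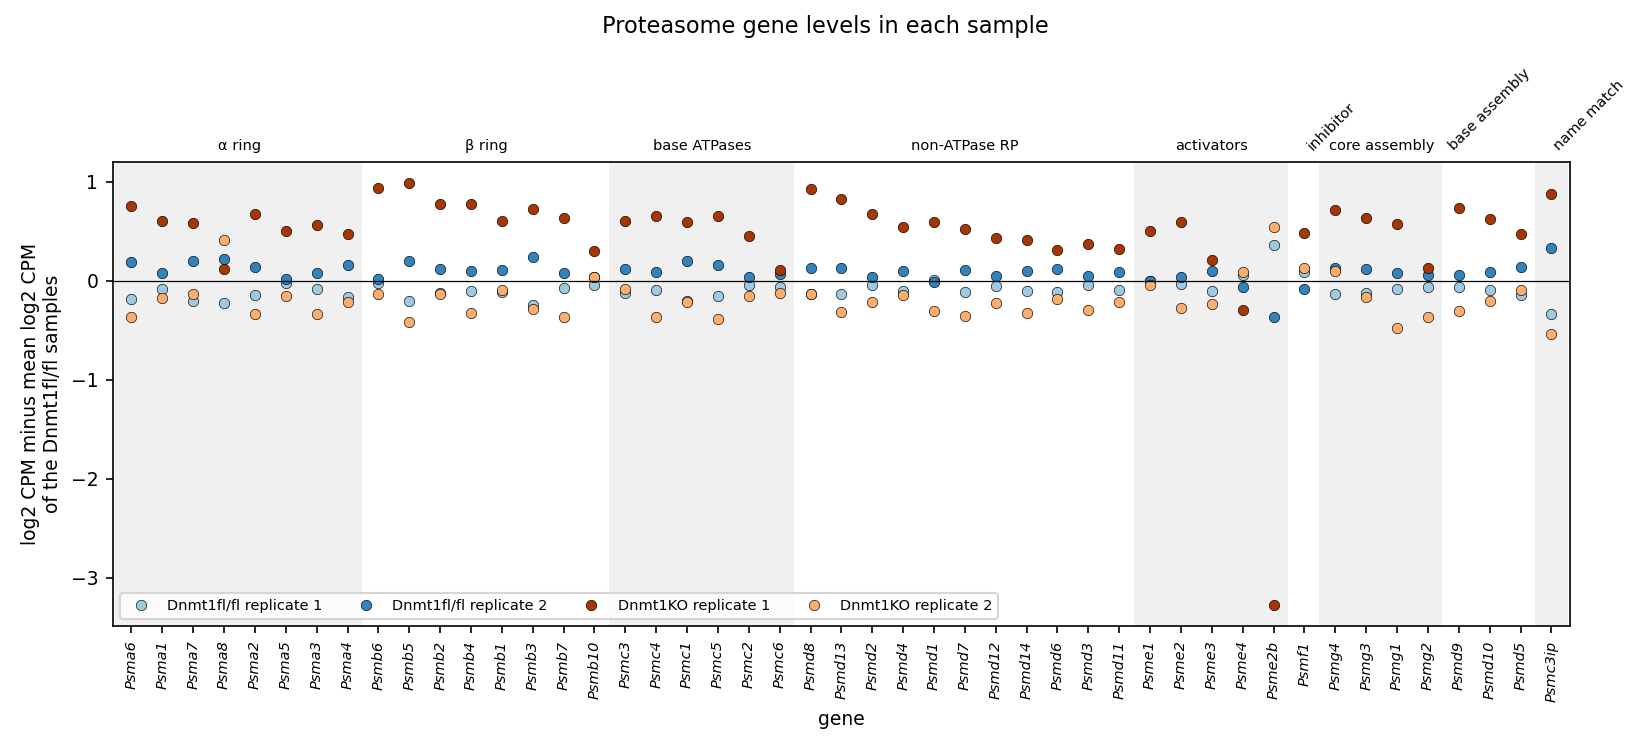
Level of each of the 47 genes in each sample, as log2 CPM minus the mean log2 CPM of the Dnmt1fl/fl samples (vertical axis), with genes grouped by role along the horizontal axis (RP, regulatory particle). Points are single samples. Dnmt1KO replicate 1 was highest for 44 of 47 genes and Dnmt1KO replicate 2 lowest for 37, with Psme2b at the bottom in Dnmt1KO replicate 1.

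The direction of the genotype difference thus depended on which Dnmt1KO sample was included. Without Dnmt1KO replicate 1, 6 of 47 members had a log2 fold change above 0 (49.6% of all genes) and the median over members was -0.22. Without Dnmt1KO replicate 2, 45 of 47 were above 0 (48.7% of all genes) and the median was 0.58, compared with 0.23 when all samples were included. In that last setting 34 members had an unadjusted p under 0.05 (27.6% of all genes), and 7 members had an adjusted p under 0.05 (edgeR; 8.32% of all genes were called), namely Psmb2, Psmb4, Psmb5, Psmb6, Psmd8 and Psmd13, higher, and Psme2b, lower. The lone remaining Dnmt1KO sample is assumed there to vary like the Dnmt1fl/fl samples. The neutrophil sum was highest in the same Dnmt1KO replicate 1, while the macrophage sum, which includes Lyz2, was lower in both Dnmt1KO samples. Cycling genes (202, 239, 289 and 182 CPM) and mesothelial or fibroblast markers (35.7, 49.3, 84.3 and 25.7 CPM) had the order of most members, with Dnmt1KO replicate 1 highest and Dnmt1KO replicate 2 lowest, and B cell markers were lowest in Dnmt1KO replicate 1 (409, 560, 168 and 640 CPM). Each of these sums had its highest or lowest value in Dnmt1KO replicate 1, and their part in the result was not tested.

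**Figure D2:**
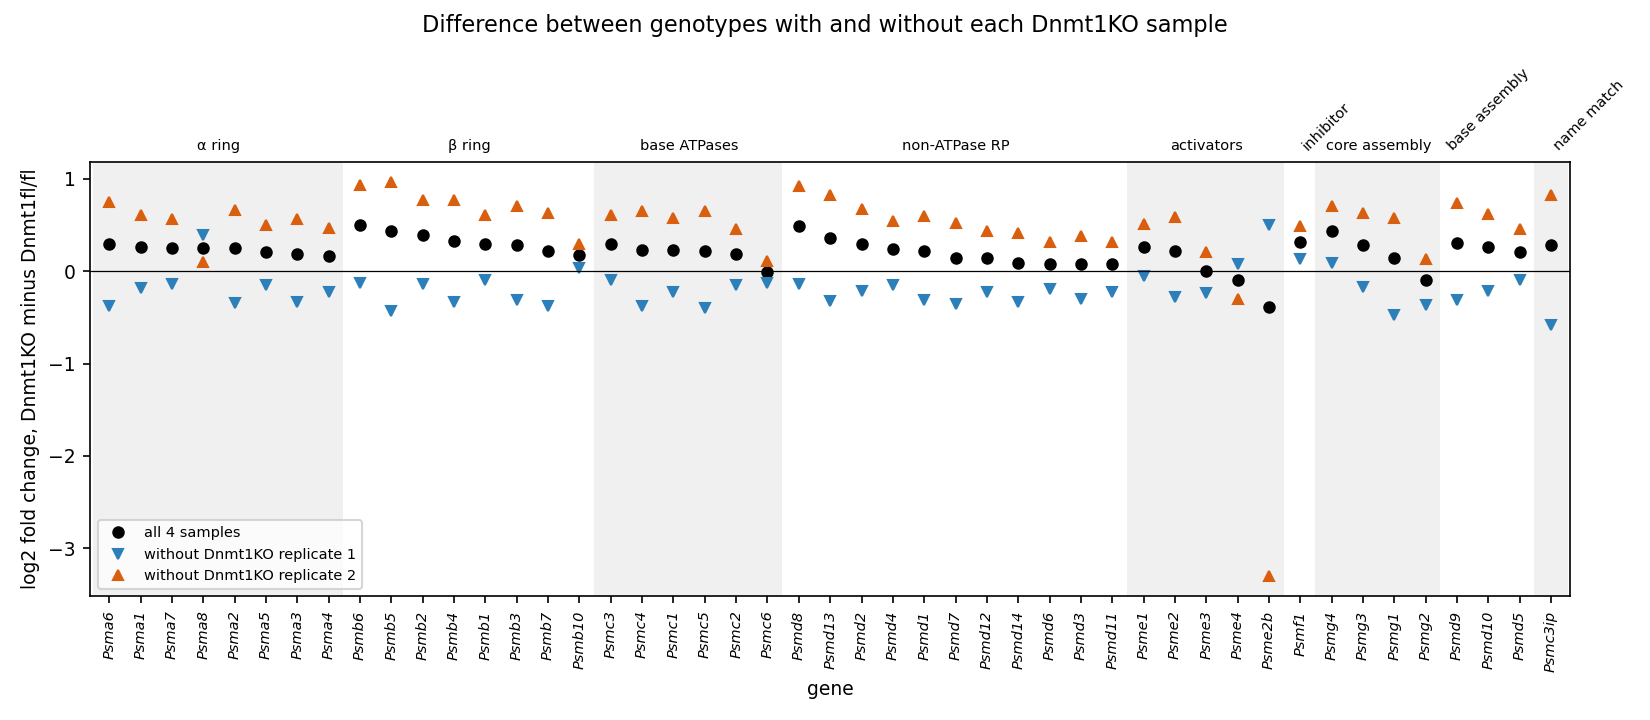
Fitted log2 fold change of Dnmt1KO minus Dnmt1fl/fl for each gene (vertical axis) with all 4 samples (circles), without Dnmt1KO replicate 1 (downward triangles) and without Dnmt1KO replicate 2 (upward triangles). The median over the 47 genes is 0.23, -0.22 and 0.58 in these settings, so that most genes lie on opposite sides of 0 in the last 2.

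Members also have short transcripts, with a median of 1440 bases against 3076.5 bases over all genes tested, and levels ran with length differently in each library. The fitted length trend at the median member was -0.11, 0.04, 0.18 and -0.11 on the log2 scale in the usual order of samples, against 0.0069, 0.03, -0.06 and 0.02 at the median of all genes. Short genes were thus relatively high in Dnmt1KO replicate 1, while the members' trend was below 0 in Dnmt1KO replicate 2 and Dnmt1fl/fl replicate 1. After the trend was removed from each library, the median log2 fold change over members was 0.13, with 0.05 over all genes, and 42 of 47 members were above 0 (59.4% of all genes). Dnmt1KO replicate 1 was then the highest sample in 43 of 47 members (45.2% of all genes), now with Psme4 and without Psmb10 and Psmg2.

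The α subunits form the outer rings and the gate. All 8 had a log2 fold change above 0, from 0.16 for Psma4 to 0.29 for Psma6, with a median of 0.25. Psma6, on chromosome 12 from 55384222 to 55418454 (GENCODE M21, GRCm38), was at 82.8, 107, 160 and 73.2 CPM. The Dnmt1KO samples were thus the highest and the lowest of the 4. Its means were 95.1 ± 17.3 and 116 ± 61.3 CPM (SD, n = 2 each), and its log2 fold change was 0.29 (standard error 0.41, 95% interval -0.72 to 1.30). Psma1, another α subunit, was at 104, 116, 168 and 97.3 CPM, again with the Dnmt1KO samples at both ends. Its log2 fold change was 0.27 (standard error 0.32). After the length correction the log2 fold changes of Psma6 and Psma1 were 0.11 and 0.13. Psma8, the α subunit otherwise used in the testis, was the least abundant of the class. Its level of 1.56, 2.11, 1.97 and 2.42 CPM is above the floor of 3 counts, which lies between 0.124 and 0.148 CPM.

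The β subunits of the inner rings include the cutting sites. All 8 had a log2 fold change above 0, with a median of 0.31, and all 8 were highest in Dnmt1KO replicate 1. Psmb6, the caspase-like site, lies on chromosome 11 from 70525367 to 70527858 and was at 118, 121, 228 and 109 CPM. The Dnmt1fl/fl samples were nearly equal, and the Dnmt1KO samples lay far above and just below them. The log2 fold change of 0.50 was the largest of the 47 members (standard error 0.38, 95% interval -0.44 to 1.44). It was -0.13 without Dnmt1KO replicate 1 and 0.93 without Dnmt1KO replicate 2.

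Psmb5, the chymotrypsin-like site on chromosome 14 from 54614119 to 54618022, was at 53.2, 70.1, 121 and 45.9 CPM. Its log2 fold change was 0.43 (standard error 0.47), and it was -0.43 without Dnmt1KO replicate 1 and 0.97 without Dnmt1KO replicate 2. The genotypes overlapped, as for Psmb6. Of the 100-base stretches of Psmb5, 22.2% also occur in other genes' transcripts, so its reads may be shared. Psmb7, the trypsin-like site on chromosome 2 from 38588036 to 38644087, was at 70.5, 78.3, 115 and 57.5 CPM, with a log2 fold change of 0.22 (standard error 0.36). It overlaps Nek6 on the opposite strand, and the deposited values of that pair add to whole numbers, so some reads were divided between them.

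Psmb10 is the inducible subunit that replaces Psmb7 in the immunoproteasome. It lies on chromosome 8 from 105935735 to 105938444 and was at 73.7, 77.7, 93.0 and 77.6 CPM, so that 3 samples were close together and Dnmt1KO replicate 1 stood above them. Its log2 fold change of 0.17 (standard error 0.22, 95% interval -0.38 to 0.72) stayed above 0 without either Dnmt1KO sample, at 0.03 and 0.30. The structural β subunits Psmb1, Psmb2, Psmb3 and Psmb4 ranged in log2 fold change from 0.29 to 0.39. In each of them Dnmt1KO replicate 1 was highest. After the length correction the log2 fold changes of the catalytic subunits Psmb6, Psmb5, Psmb7 and Psmb10 were 0.29, 0.22, 0.06 and 0.08.

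The 3 inducible catalytic subunits were compared with the standard ones they replace, as ratios of CPM per kilobase within a sample. The other inducible subunits, Psmb8 and Psmb9, were at 158, 173, 230 and 171 CPM and at 68.5, 65.6, 74.3 and 81.1 CPM, with log2 fold changes of 0.28 and 0.21. Psmb8 takes the place of Psmb5, Psmb9 that of Psmb6 and Psmb10 that of Psmb7. The ratio of Psmb8 to Psmb5 was 1.64, 1.36, 1.05 and 2.05. The ratio of Psmb9 to Psmb6 was 0.343, 0.320, 0.192 and 0.439. The ratio of Psmb10 to Psmb7 was 0.925, 0.879, 0.713 and 1.19. All 3 ratios were lowest in Dnmt1KO replicate 1 and highest in Dnmt1KO replicate 2, with the Dnmt1fl/fl samples in between, also after the length correction. The mean log2 ratio differed between genotypes by -0.03, -0.19 and 0.03, each less than the pooled SD between replicates of 0.50, 0.60 and 0.37. After the length correction these differences were 0.06, -0.13 and 0.05, against pooled SDs of 0.38, 0.53 and 0.35. The interferon-response list (8 of 8 genes in the table) summed to 596, 795, 607 and 781 CPM of the library totals, an order that the ratios did not follow.

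**Figure D3:**
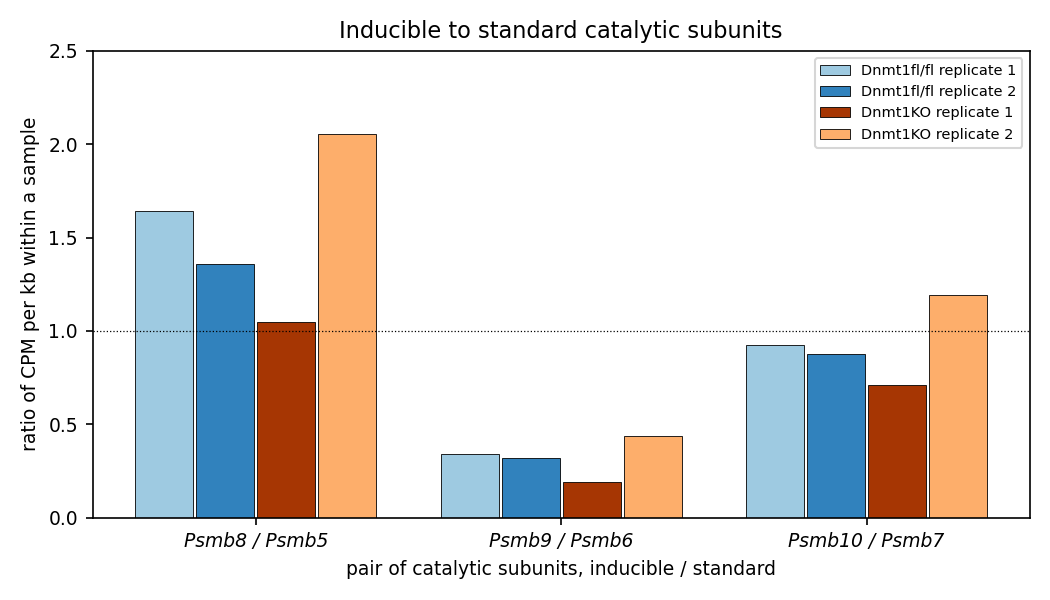
Ratio of each inducible catalytic subunit to its standard counterpart, from CPM per kilobase of transcript within a sample (bars start at 0; no error bars, since each bar is 1 sample; dotted line, equal levels). In each pair Dnmt1KO replicate 1 is lowest and Dnmt1KO replicate 2 highest, such as 1.05 and 2.05 for Psmb8 to Psmb5.

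The 6 ATPases of the regulatory particle base, Psmc1 to Psmc6, pull substrates into the core. Their median log2 fold change was 0.22, with 5 above 0 and Psmc6 at -0.01. Psmc3, on chromosome 2 from 91054009 to 91066369, was at 89.5, 106, 149 and 92.2 CPM, with a log2 fold change of 0.30 (standard error 0.30). Here Dnmt1KO replicate 2 was not the lowest sample, but it lay below Dnmt1fl/fl replicate 2. Psmc4, on chromosome 7 from 28041707 to 28050101, was at 51.2, 58.2, 86.2 and 42.3 CPM, with a log2 fold change of 0.23 (standard error 0.37), or 0.12 after the length correction. Psmc6 was at 73.0, 80.0, 82.4 and 70.1 CPM, and its samples spanned a narrower range than those of the other ATPases. Without Dnmt1KO replicate 1, 0 of these 6 genes had a log2 fold change above 0, and without Dnmt1KO replicate 2 all 6 did.

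The 11 other subunits of the regulatory particle include its scaffolds, the ubiquitin receptor Psmd4 and the deubiquitinase Psmd14. All 11 had a log2 fold change above 0, with a median of 0.15, and in all 11 Dnmt1KO replicate 1 was the highest and Dnmt1KO replicate 2 the lowest sample. Psmd8, a lid subunit on chromosome 7 from 29174188 to 29180701, had the highest counts of the members, at 263, 316, 550 and 262 CPM. Dnmt1KO replicate 1 stood apart, while the other Dnmt1KO sample was level with Dnmt1fl/fl replicate 1. The fitted log2 fold change was 0.49 (standard error 0.39, 95% interval -0.48 to 1.46), or -0.14 without Dnmt1KO replicate 1. Psmd13, another lid subunit on chromosome 7 from 140881968 to 140898643, was at 69.8, 83.9, 136 and 61.7 CPM, with a log2 fold change of 0.36 (standard error 0.40). Psmd2 and Psmd1, the scaffolds of the base, had log2 fold changes of 0.30 and 0.21, the receptor Psmd4 0.24, and the deubiquitinase Psmd14 0.09. Without Dnmt1KO replicate 1, 0 of the 11 were above 0.

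**Figure D4:**
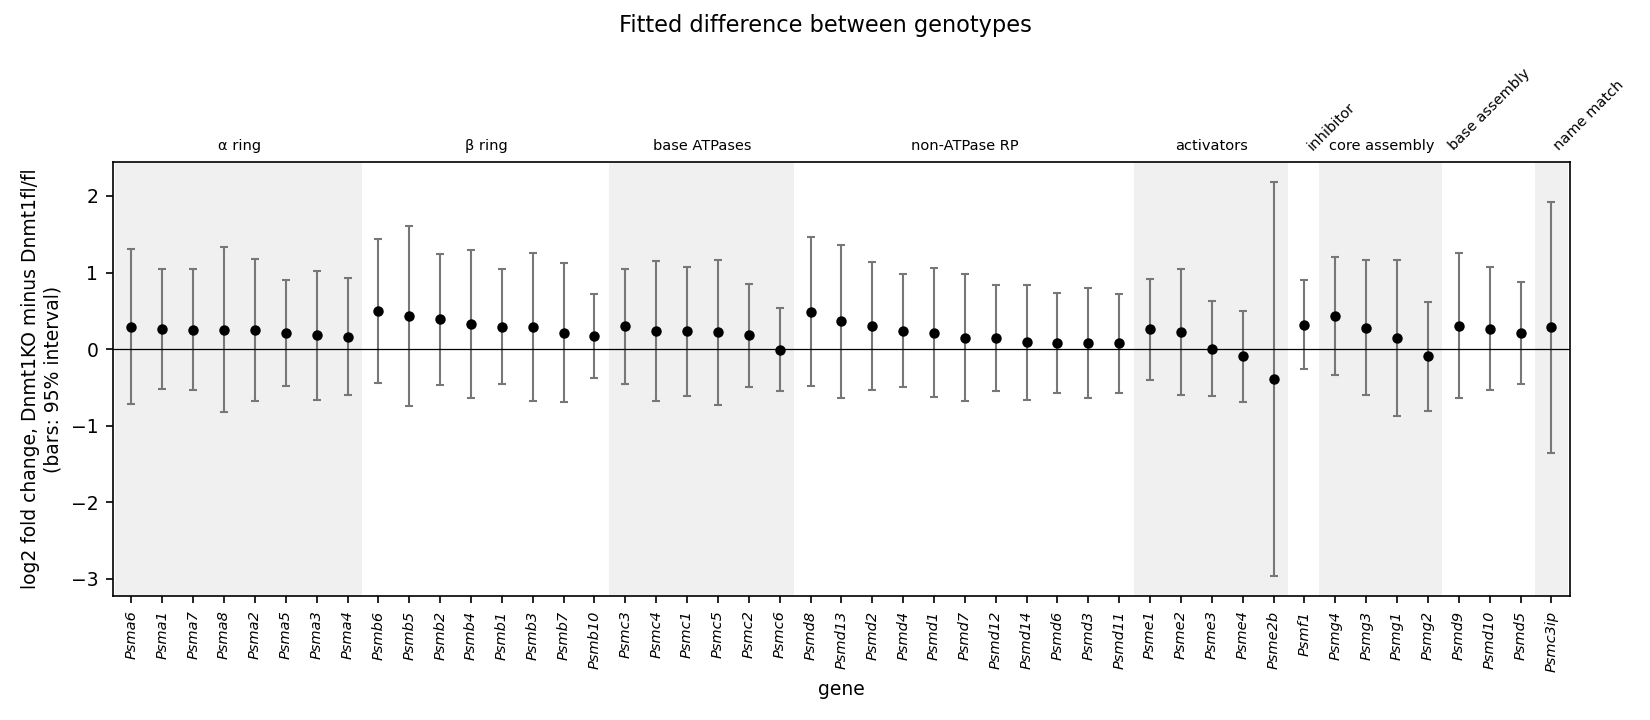
Fitted log2 fold change of Dnmt1KO minus Dnmt1fl/fl for each of the 47 genes (points) with its 95% interval (bars), grouped by role. The points range from -0.39 for Psme2b to 0.50 for Psmb6, and every interval includes 0.

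The activators open the core without the ATPase ring. Psme1 and Psme2 encode the interferon-inducible PA28 α and β subunits, neighbours on chromosome 14 (55578123 to 55581529 and 55587441 to 55591113). Psme1 was at 122, 121, 173 and 118 CPM, with 3 samples nearly level, and its log2 fold change was 0.26 (standard error 0.27, 95% interval -0.40 to 0.92). Psme2 was at 95.6, 100.4, 148 and 81.2 CPM, with the Dnmt1KO samples at both ends, and its log2 fold change was 0.22 (standard error 0.33). After the length correction these values were 0.12 for Psme1 and 0.04 for Psme2. Psme3, the nuclear PA28 γ on chromosome 11 from 101316213 to 101323537, was at 67.4, 77.2, 83.8 and 61.5 CPM. Its genotype means were 72.3 ± 6.90 and 72.6 ± 15.8 CPM (SD, n = 2 each), and its log2 fold change was 0.0060 (95% interval -0.61 to 0.63). With library totals in place of TMM it was -0.08.

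Psme4 encodes the nuclear activator PA200, on chromosome 11 from 30771726 to 30880361. It ran against Psme1, Psme2 and Psme3 across the samples, at 88.1, 80.6, 68.7 and 89.4 CPM, with Dnmt1KO replicate 1 lowest. Its log2 fold change was -0.09 (standard error 0.24), and it was 0.04 after the length correction. Its transcript of 6491 bases was the longest of the members. Psmf1, the inhibitor PI31 on chromosome 2 from 151715812 to 151744186, was at 23.7, 21.1, 31.4 and 24.5 CPM. Both Dnmt1KO samples were above both Dnmt1fl/fl samples, although Dnmt1KO replicate 2 exceeded Dnmt1fl/fl replicate 1 by less than 1 CPM. Its log2 fold change was 0.32 (standard error 0.23, 95% interval -0.26 to 0.90), or 0.13 without Dnmt1KO replicate 1.

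Ratios within a sample compared the interferon-inducible activator with the nuclear one. Psme1 was 4.32, 3.76, 4.94 and 4.58 times Psme3 in CPM per kilobase, with both Dnmt1KO samples above both Dnmt1fl/fl samples and a log2 difference of 0.24 against a pooled SD of 0.11. With the length correction, added for the ratios after seeing the data, it was 4.76, 3.75, 4.06 and 5.07, so that the genotypes overlapped and the log2 difference was 0.10 against a pooled SD of 0.23. Psme2 was 3.93, 3.60, 4.88 and 3.66 times Psme3, and there the genotypes overlapped. The ratio of Psme1 to Psme2, which form a ring together, was 1.10, 1.04, 1.01 and 1.25, with the Dnmt1KO samples at both ends.

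Psme2b, a copy of Psme2 with 1 exon on chromosome 11 from 48945354 to 48946190, is described because its values stood apart. It was at 8.82, 5.30, 0.707 and 9.9998 CPM, so that Dnmt1KO replicate 1 was far below the other 3 samples. For Psme2b the log2 fold change was -0.39 (standard error 1.04), or 0.50 without Dnmt1KO replicate 1 and -3.31 without Dnmt1KO replicate 2. With limma-voom it was -1.21 and with the replicate number as a block -1.20. Psme2b shares 52.0% of its 100-base stretches with Psme2, and in each sample the deposited values of Psme2 and Psme2b add to a whole number within 0.015, so reads that match both were divided between them. Psme2b received 8.45% (exact 95% interval 7.30 to 9.70), 5.01% (4.22 to 5.92), 0.480% (0.261 to 0.798) and 10.98% (9.67 to 12.4) of the pair's counts. These intervals cover counting error only. The sum of the pair was 104, 106, 148 and 91.2 CPM, a log2 ratio of genotype means of 0.19. Psme2b also overlaps 9930111J21Rik1 on the same strand, and that gene was at 21.05, 12.2, 2.02 and 30.6 CPM, with the samples in the same order.

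The 7 assembly chaperones hold subunits together while the complex is built and are not part of it afterwards. Of these, 6 had a log2 fold change above 0, the median was 0.27, and all 7 were highest in Dnmt1KO replicate 1. Psmg4, a chaperone of core assembly on chromosome 13 from 34162964 to 34178173, was at 10.7, 12.9, 19.3 and 12.6 CPM. Dnmt1KO replicate 1 was the highest and the other 3 samples were close together. For Psmg4 the log2 fold change was 0.43 (standard error 0.31, 95% interval -0.34 to 1.21), or 0.09 without Dnmt1KO replicate 1. Psmd9, a chaperone of base assembly on chromosome 5 from 123169413 to 123250131, was at 15.3, 16.8, 26.8 and 13.0 CPM, with a log2 fold change of 0.31 (standard error 0.38). Psmg2, on the other side of 0, had a log2 fold change of -0.10. Psmc3ip, which matches by name only, was at 0.828, 1.32, 1.92 and 0.720 CPM.

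The classes were compared by their medians. The median log2 fold change was 0.26 over the 16 core subunits, 0.21 over the 17 subunits of the regulatory particle and 0.11 over the 4 activators Psme1 to Psme4, beside 0.0046 over all genes tested. The ranges overlapped, from 0.16 to 0.50 in the core, from -0.01 to 0.49 in the regulatory particle and from -0.09 to 0.26 among the activators. Psme2b, the copy of Psme2 that shares its reads, was at -0.39 and was left out of the activators here. A value of 0.2 or more was found in 13 of 16, 9 of 17 and 2 of 4 genes, and in 21.8% of all genes tested. After the length correction the medians were 0.15, 0.12 and 0.04. Without Dnmt1KO replicate 1 they were -0.20, -0.22 and -0.14, and without Dnmt1KO replicate 2 they were 0.62, 0.54 and 0.36. In Dnmt1KO replicate 1 the median deviation from the mean of the 4 samples was 0.54, 0.48 and 0.31 on the log2 scale. The activators had the median nearest to 0 in each of these settings, and this difference between classes was not tested, since the genes of a class share their libraries.

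Levels could be set side by side per transcript length. In Dnmt1fl/fl macrophages the median core subunit was at 59.9 and 72.7 CPM per kilobase in the replicates, compared with 35.6 and 42.2 for the regulatory particle and 9.78 and 10.6 for the assembly chaperones. In Dnmt1KO macrophages these medians were 109 and 57.9, 59.9 and 31.4, and 12.5 and 7.92 CPM per kilobase. The core was above the regulatory particle and both were above the chaperones in all 4 samples. Within the β rings, mean levels in Dnmt1fl/fl ran from 56.0 CPM per kilobase for Psmb2 to 150 for Psmb6, and within the α rings from 25.9 for Psma3 to 110 for Psma4, with Psma8 at 1.09. The ATPases were the most even, from 34.2 for Psmc6 to 59.2 for Psmc1. Among the other regulatory subunits Psmd11 was lowest at 17.7 and Psmd8 highest at 146. Psme1 and Psme2 were at 109 and 102 CPM per kilobase, above Psme3 at 27.1 and Psme4 at 13.0. The lowest chaperone was Psmd9 at 6.19 and the highest Psmg4 at 21.3. These values depend on the transcript taken as the gene's length.

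**Figure D5:**
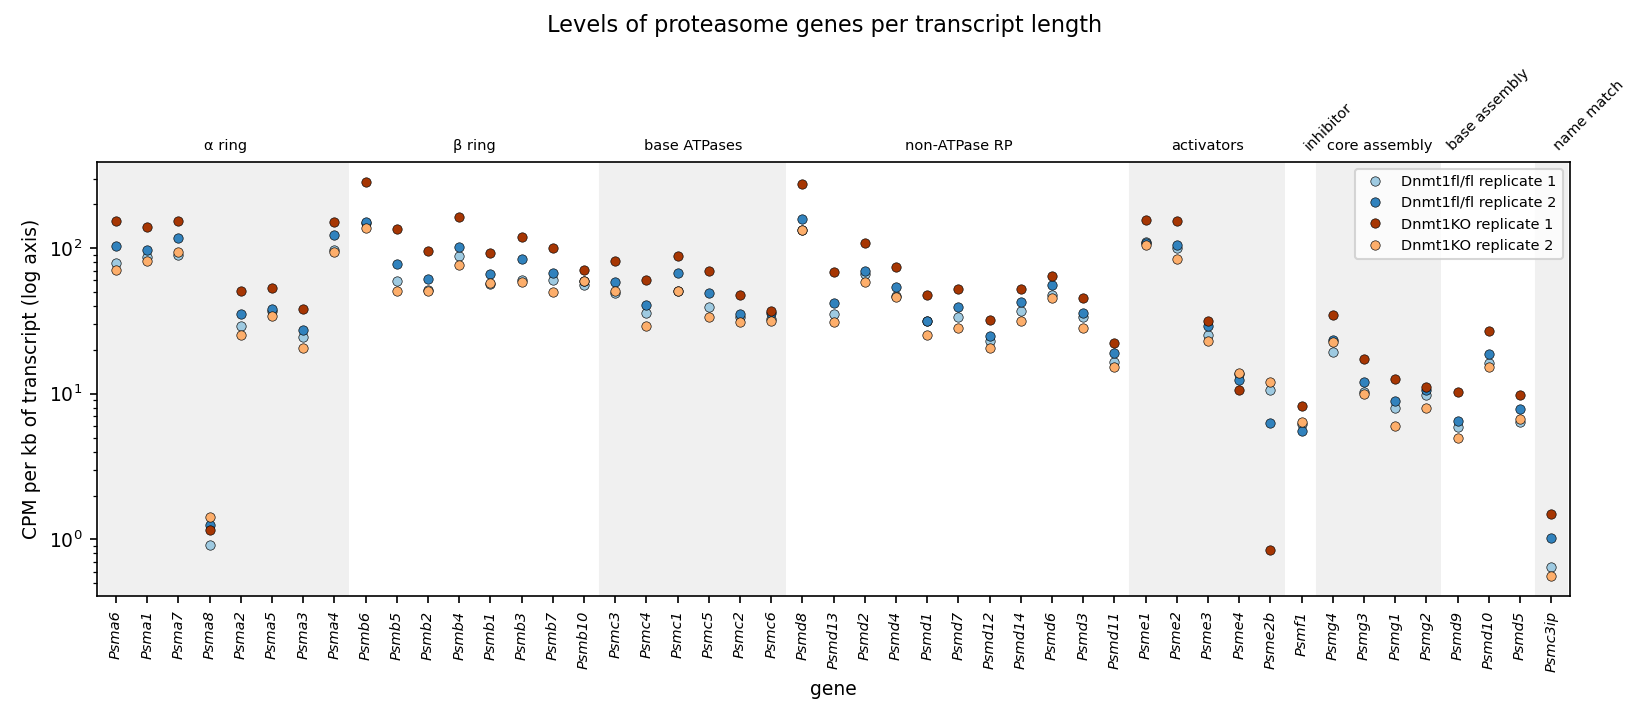
Level of each gene in each sample in CPM per kilobase of its longest protein-coding transcript (vertical log axis), grouped by role. Points are single samples. Most core and regulatory subunits lie above the assembly chaperones, while Psma8 at 1.09 CPM per kilobase in Dnmt1fl/fl lies far below the other α subunits.

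Other genes of the pathway were taken from a list of 34 symbols that covers subunits without a Psm name, the dropped immunosubunits, assembly factors, bound deubiquitinases, ubiquitin genes, shuttles and transcription factors, with 30 genes tested. None passed the test, with 0 of 30 at an unadjusted p under 0.05 by edgeR. Their log2 fold change was above 0 in 20 of 30 (50.9% of all genes), at least 0.2 in 8 (21.8%) and -0.2 or less in 0 (19.7%), and Dnmt1KO replicate 1 was highest in 19 (38.8%). The genotypes did not overlap for 2 of them, Psmb9, higher in Dnmt1KO (8.14% of all genes), and the ubiquitin shuttle Rad23b, lower (8.56%) at 113, 112, 106 and 98.7 CPM. The largest value was 0.44 for Sem1, the small lid subunit, at 122, 161, 260 and 124 CPM. The lowest was -0.17 for Nfe2l2, the transcription factor of the antioxidant response, at 309, 296, 307 and 230 CPM. Nfe2l1, the factor that raises proteasome genes when proteasome activity is limiting, was at 137, 140, 164 and 129 CPM, with a log2 fold change of 0.08. Both subunits without a Psm name, Adrm1 and Sem1, were highest in Dnmt1KO replicate 1, as were most proteasome members.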

How the data were processed

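RNA-seq was available for 2 Dnmt1fl/fl and 2 Dnmt1KO samples of peritoneal macrophages. According to the methods and the submitters' processing notes, paired-end reads of NEBNext libraries were aligned to mm10 with HISAT2 2.0.5 and counted with featureCounts 1.5.0-p3. The authors deposited estimated counts per gene without normalization. The annotation and the sharing of reads between genes are not given in the sources used here. All 4 values were exactly whole in 35 of the 47 members. Psmc3, Psmd13 and Psme1 overlap Slc39a13, Sirt3 and Emc9 on the opposite strand, and whether counting used strand is not given in the sources used here. A shorter table of the same samples was not used here.

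Counts were rounded, filtered with filterByExpr, scaled with TMM and compared with the two-sided quasi-likelihood F-test of edgeR 4.0.16 (R 4.3.3). P-values were adjusted over all 12542 genes tested by the Benjamini-Hochberg method. The dispersion of 0.0837 corresponds to 28.9% variation between replicates. The floor was 3 counts, which covers counting error only. CPM per kilobase used the longest protein-coding transcript of GENCODE M21 (GRCm38), matched by symbol. Alternatives were limma-voom (limma 3.58.1), DESeq2 1.42.0, other scaling and filters, a replicate block, a length correction (loess, span 0.5) and leaving out each sample. Fits were tested on simulated data. Other calculations used Python 3.11.15.

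Values per sample are given for the catalytic β subunits, the activators and the inhibitor, and the 2 members with the largest absolute log2 fold change in each class, with levels for the lowest and highest per length. Psme2b, Psma8, Psmc6 and Psmc3ip were named after their values were seen. Members, lists and motifs were chosen with earlier results of these data known. Values of some genes of the pathway list are not reported here.

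Lists of markers were summed as CPM of the library totals, in the order used in the text. T cell markers (8 of 8 in the table) gave 41.4, 63.7, 36.6 and 58.5, and mast cell markers (6 of 6) 12.9, 11.2, 9.37 and 9.33. Eosinophil markers gave 14.3, 10.4, 6.98 and 11.5, with Prg2 and Epx not in the table. Dendritic cell markers (6 of 6) gave 42.9, 42.3, 21.4 and 55.5. The lists of B cell markers (8 of 8), mesothelial or fibroblast markers (6 of 6) and cycling genes (6 of 6) are given with the results.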

Additional observations from a re-analysis of the deposited data

How the results depend on the processing

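Of the members, 0 were called under every alternative with all samples, and the median log2 fold changes of the core, the regulatory particle and the activators stayed above 0 in those settings. Over the fits that left out 1 sample they ran from -0.20 to 0.62, from -0.22 to 0.54 and from -0.14 to 0.36, the lowest without Dnmt1KO replicate 1 and the highest without Dnmt1KO replicate 2. In the same fits 0 to 1061 of all genes and 0 to 7 members were called, 0 to 34 members had an unadjusted p under 0.05, and 12 to 44 members passed a log2 fold change of 0.2 in either direction, against 32 with all samples.

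That count of 32 (41.5% of all genes passed 0.2) was 20 with limma-voom (42.1%), 11 with library totals only (40.2%) and 17 with the length correction (39.2%). Members whose genotypes did not overlap in either direction were 1 with TMM (16.7% of all genes), 2 with library totals only (16.5%) and 4 with the length correction (18.9%). DESeq2 called 1 of all genes. With library totals only, the median of all genes moved from 0.0046 to -0.06, and the share of higher genes among those past 0.2 from 52.4% to 33.6%; it was 60.1% with the length correction and 44.1% with limma-voom. The log2 fold change of Psme3, 0.0060 with all samples and TMM, was -0.0088 with limma-voom and -0.0805 with library totals only. That of Psme4 was 0.0392 with the length correction. The cause of these changes was not tested.

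The labels do not say whether samples with the same replicate number shared more than the number. Deviations of these samples from the genotype means correlated at -0.35 over genes. With the replicate block, 21 members passed 0.2 (42.6% of all genes), the share of higher genes was 44.3%, Psme3 was at -0.0077 and Psme2b at -1.20. With the replicate block and the length correction, 14 members passed 0.2 (39.6% of all genes), and Psme4 was at 0.0386. The crossed pairing, chosen after seeing the data, called 3 of all genes and 0 members, with 1 member, Psme2b at -1.13, at an unadjusted p under 0.05 (2.37% of all genes) and Psme3 at -0.0073. When the length correction was added to the crossed pairing, 14 members passed 0.2 (39.6% of all genes), and Psme4 was at 0.0386.

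Leaving out 1 sample changed the sign of 15 of the 18 members described in full. The ranges were -0.18 to 0.61 for Psma1, -0.38 to 0.75 for Psma6, -0.43 to 0.97 for Psmb5, -0.13 to 0.93 for Psmb6, -0.37 to 0.63 for Psmb7, -0.0903 to 0.60 for Psmc3, -0.37 to 0.66 for Psmc4, -0.14 to 0.93 for Psmd8, -0.32 to 0.82 for Psmd13, -0.31 to 0.74 for Psmd9, -0.0477 to 0.51 for Psme1, -0.27 to 0.59 for Psme2, -3.31 to 0.50 for Psme2b, -0.24 to 0.21 for Psme3 and -0.30 to 0.0824 for Psme4. Psmb10, Psmf1 and Psmg4 stayed above 0 in these fits.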

Other observations

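Among the other pathway genes, Rps27a, which encodes ubiquitin fused to a ribosomal protein, was at 274, 302, 479 and 249 CPM in the same sample order as above. The polyubiquitin gene Ubb was at 908, 1139, 1331 and 1032 CPM. The E1 enzyme Uba1, which activates ubiquitin, was at 252, 244, 282 and 240 CPM. Each was highest in Dnmt1KO replicate 1, and Dnmt1KO replicate 2 was the lowest sample for Rps27a and Uba1 but not for Ubb.

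Vcp, the ATPase that extracts ubiquitinated proteins from complexes and membranes, was at 246, 242, 379 and 220 CPM, with Dnmt1KO replicate 1 above the other 3 samples. Its cofactors did not show that spread, with Nploc4 at 57.2, 58.2, 64.8 and 50.9 CPM and Ufd1 at 35.7, 38.8, 35.9 and 35.3 CPM. The deubiquitinases that bind the regulatory particle differed in order, as Uchl5 was at 23.6, 26.7, 35.3 and 20.8 CPM and Usp14 at 64.7, 56.1, 62.7 and 51.3 CPM. The genotypes overlapped for Vcp, Nploc4, Ufd1, Uchl5 and Usp14.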
